A study of Rattus norvegicus with 35 samples.

Results

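Retinas taken 24 h after intraorbital transection of the optic nerve (IONT) were compared with naive retinas on 4 of the 35 Affymetrix RAE230.2 arrays of a time course of optic nerve injury in the rat. The comparison set the 2 arrays of IONT 24 h (replicates 1 and 2) against naive arrays D and E (naive replicates 4 and 5). By the titles, IONT 24 h replicate 1 is array B of its group and replicate 2 is array A. These naive arrays were chosen because their β-actin control probe sets put them with the IONT 24 h arrays, as described below, and not by the value of any gene. The study followed the retina of adult female Sprague-Dawley rats after IONT or after crush of the nerve in the orbit (IONC), to find which genes respond to axotomy of the retinal ganglion cells (RGCs). All animals were wild-type rats, the left optic nerve was cut in the injured ones, and the left retina was taken. The RNA on an array came from a pool of 4 retinas, each from another animal, and the p-values below therefore reflect how pools varied, not how animals did. Because whole retinas were measured, fewer cells of a type and less RNA per cell cannot be told apart.

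RGCs are the output neurons of the retina, and their axons form the optic nerve. Cutting the nerve in the orbit leaves their cell bodies in place for some days before most of them die. Müller glia, which span the retina, and microglia are known to react early, glia through cytokine receptors that signal to STAT3 and through endothelin.

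An array value is the log2 signal of a probe set, and a difference of 1 between values is a factor of 2 in signal. Across the 35 arrays, the 3′ control probe set for β-actin exceeded the 5′ one. The difference ran from 1.53 to 1.93 on 27 arrays and from 2.61 to 3.65 on 8 arrays. It can reflect the state of the RNA or how far the labelling reached along a transcript. Which of them differed between arrays was not tested. The 8 arrays were naive D and E and those at 24 h, 3 d and 15 d after IONT. No label names this a batch. Naive D and E differed from naive A to C in 1587 of 14217 genes (11.2%), 765 higher and 822 lower, so a change measured against naive A to C cannot be told apart from this difference. The β-actin differences were 3.19 for naive D, 2.98 for naive E, 3.65 for IONT 24 h replicate 1 and 3.22 for replicate 2. Both injured arrays thus still lay above both naive arrays, and replicate 1 was the highest of the 35 arrays. The array medians of these 4 arrays lay between 4.37 and 4.52, and their pairwise correlations between 0.986 and 0.995 across probe sets.

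Replicate 1 of IONT 24 h stood apart in genes of tissues other than the retina. The summed linear signal of 13 keratin genes of cornea, conjunctiva and skin was 1425 and 1370 in naive D and E, 12770 in replicate 1 and 1673 in replicate 2. The 15 neutrophil and lymphocyte genes summed to 90.5 and 89.1 in the naive arrays, 1135 in replicate 1 and 357.5 in replicate 2. The 19 lens crystallin genes summed to 111200 and 152900 in the naive arrays, 35810 in replicate 1 and 100800 in replicate 2. The keratin sum was thus high in replicate 1, although Krt14 was also above the naive arrays in replicate 2, at 7.79 against 2.89 and 3.23. The neutrophil and lymphocyte sum rested mostly on S100a9, at 9.98 and 8.06 in the injured arrays, and only 5 of the 15 genes lay above 0, with a median of -0.01. The crystallin sum was lowest in replicate 1. The 4 measured haemoglobin genes summed to 2652 and 1439 in naive D and E and to 705.3 and 960 after IONT. The 17 skeletal muscle genes summed to 1341 and 1257 in naive arrays and to 2644 and 2229 after IONT, and the 14 genes of the retinal pigment epithelium to 10530 and 8280 against 6800 and 7572. No member of these 6 lists was called by the threshold given below. A crystallin probe set that carries the symbols Crygf and Cryge, and so stands for no single gene, was called lower, from 5.69 and 7.62 to 2.75 and 3.11, by 3.72 ± 0.60 (adjusted p = 0.00429 by limma), the largest decrease of the called probe sets. The lists' part in the results below was not tested. The defining retinal genes were at high signal in every array, with the rod arrestin Sag between 14.79 and 15.04 and the Müller glial Rlbp1 between 11.96 and 12.07, whereas the RGC factor Pou4f1 was near the lower end of the arrays' values, at 2.77 to 3.19.

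**Figure D1:**
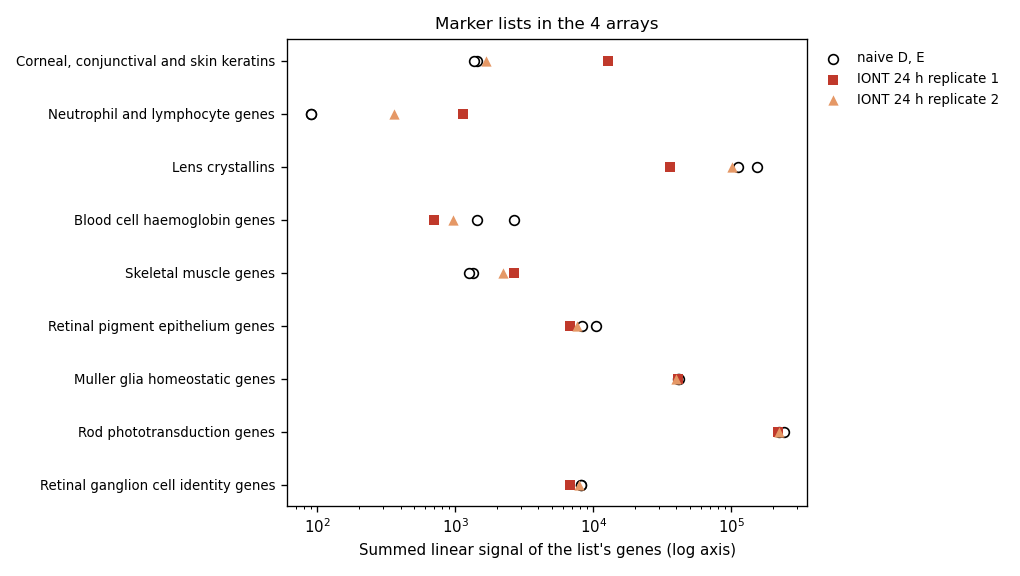
Summed linear signal of 9 marker lists in naive D and E (open circles) and in IONT 24 h replicates 1 (squares) and 2 (triangles), on a log axis. Keratins sit at 12770 in replicate 1 against 1370 to 1673 in the other 3 arrays, while the sums of the Müller glia, rod and RGC lists lie close together in the 4 arrays.

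At 24 h after IONT, 447 of 31042 probe sets (1.44%) were called changed, 284 higher (0.915%) and 163 lower (0.525%). Genes were called from a linear model of limma over the 5 naive and 15 IONT arrays. A call needed a fold of 1.2 or more, positive log odds (B) of a change, and a Benjamini-Hochberg adjusted p below 0.01. With 1 probe set per gene, 182 of 14217 genes (1.28%) were called, 114 higher (0.802%) and 68 lower (0.478%). The increases ran from 0.35 to 4.55 on the log2 scale with a median of 0.98, and 12 exceeded 2. The decreases ran from 0.31 to 2.18 with a median of 0.86, and 6 exceeded 2. In every one of the 182 genes both injured arrays lay outside the range of naive D and E, as they did in 6996 of all genes (49.2%). A further 354 genes differed by over 1 between the group means without being called. The median change over all genes was -0.002, and 48.4% of genes lay above 0. Centring the arrays on their medians moved the median change of the probe sets to -0.135, and relative to that shift 174 probe sets were called higher and 397 lower, a share of 30.5% higher against 63.5% in the deposited scale and 131 of the 182 genes were still called. Without replicate 1 of IONT 24 h 232 probe sets were called, and without naive D 170; 45 and 33 of the 182 genes were still called. The calls lean on the spread of the other groups: with the 4 arrays fitted alone limma called 0, with 5081 at an unadjusted p under 0.05, with the 8 arrays of the high β-actin range 0, with 3672, and with all 35 arrays 258.

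**Figure D2:**
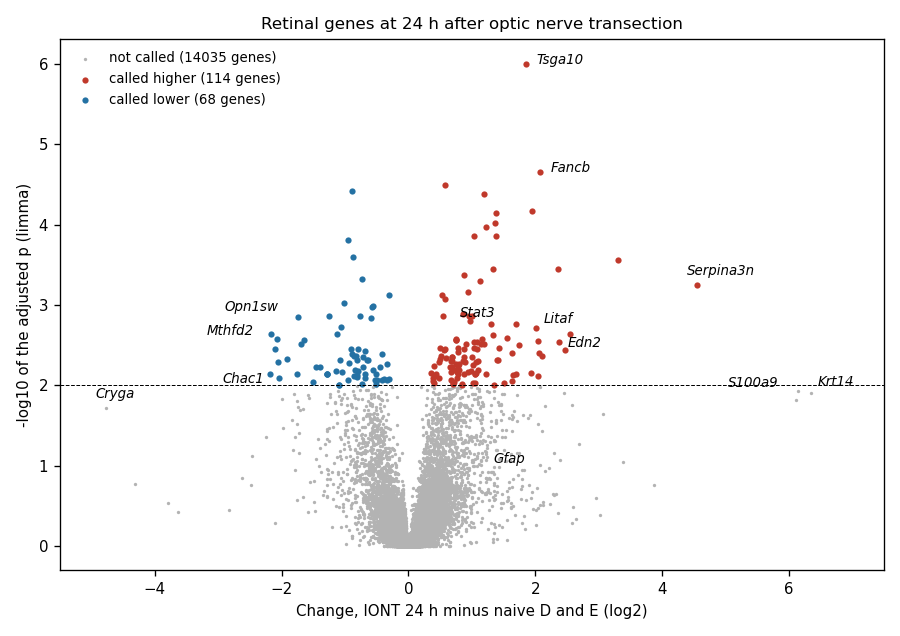
Change of 14217 genes between IONT 24 h and naive D and E (x axis, log2) against -log10 of the adjusted p of limma (y axis); the dashed line marks an adjusted p of 0.01. Red points are the 114 genes called higher and blue points the 68 called lower; Krt14, S100a9 and Sprr1a lay furthest to the right without being called.

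Some genes of reactive glia and the acute-phase response rose. Of 19 measured genes of reactive gliosis 3, Serpina3n, Edn2 and Cp, were called higher and 0 lower, 15 of the 19 lay above 0, and the median change was 0.52. The largest increase of all called genes was that of Serpina3n, a secreted serine protease inhibitor that marks reactive astrocytes. Its value was 2.83 and 2.76 in naive D and E and 7.36 and 7.33 in IONT 24 h replicates 1 and 2, a change of 4.55 ± 0.54 (SE) with an adjusted p of 0.000558 by limma. The 2 injured arrays were nearly equal and the naive arrays were close to the bottom quartile of the array. Edn2, endothelin 2, a peptide that photoreceptors release and that acts on Müller glia, rose from 5.38 and 5.57 to 7.69 and 8.02, by 2.38 ± 0.36 (adjusted p = 0.00287 by limma). Cp, the copper-carrying ferroxidase ceruloplasmin, rose from 10.50 and 10.23 to 11.98 and 11.55, by 1.40. All 3 genes were separated between the groups by more than the distance within either pair.

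Other gliosis genes missed the threshold. Gfap, the intermediate filament of astrocytes and reactive Müller glia, was 9.24 and 9.32 in naive D and E and 10.34 and 10.65 after IONT, a difference of 1.22 ± 0.37 with an adjusted p of 0.0836 by limma. Naive A to C lay at 6.95, 7.16 and 7.13 for Gfap, so naive D and E were 2.20 higher than the other naive arrays. A2m, the protease inhibitor alpha-2-macroglobulin, differed by 1.12 (adjusted p = 0.0111 by limma) and Lcn2, the iron-binding lipocalin 2, by 2.16 (adjusted p = 0.0181 by limma). Lcn2 read 6.56 and 6.48 in the naive arrays and 8.59 and 8.77 in the injured ones, without overlap. The cationic amino acid transporter Slc7a1, on the same list, lay 1.66 lower (adjusted p = 0.0198 by limma). Homeostatic genes of Müller glia had 0 calls among 14, where 1.28% of all genes were called. Glutamine synthetase (Glul) lay between 12.39 and 12.77 in all 4 arrays.

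A few transcription factors that act downstream of cytokine receptors rose. Stat3, which carries signals of the gp130 cytokines, was 7.35 and 7.94 in naive D and E and 9.26 and 9.44 after IONT, a change of 1.70 ± 0.23 (adjusted p = 0.00171 by limma). It was the 1 call among 19 JAK, STAT and SOCS genes, whose median change was -0.04, and 0 of 12 gp130 cytokines and receptors were called by the brightest probe set of the gene. A dimmer probe set of Il6st, which encodes gp130 itself, was called higher, from 8.16 and 8.74 to 9.53 and 9.53, by 1.07, whereas its brightest differed by 0.35 (adjusted p = 0.0714 by limma). Cebpb, a basic leucine zipper factor of the acute-phase response, rose from 4.49 and 4.52 to 5.83 and 5.56, by 1.19 ± 0.18. Litaf, a gene named for a role in TNF transcription, rose from 8.47 and 8.62 to 10.61 and 10.49, by 2.01 ± 0.28 (adjusted p = 0.00192 by limma). Cebpb and Litaf were the 2 calls among 12 genes listed with the C/EBP and NF-κB factors, of which 9 lay above 0 with a median of 0.36. Cebpd, at 6.66 and 6.38 against 9.07 and 9.15, and Bcl3, at 3.75 and 3.80 against 6.23 and 6.21, differed by 2.58 and 2.45 and missed the threshold with adjusted p of 0.0174 and 0.0124 by limma. Klf6, a zinc-finger factor linked to axon growth, rose from 6.20 and 6.56 to 7.60 and 7.26, by 1.05, but naive D and E were 1.64 lower than naive A to C, and against naive A to C its change was -0.59. Ier3, an immediate early gene, rose from 5.42 and 6.41 to 7.91 and 7.40, by 1.74, and the gap between the groups was about as wide as that between naive D and E.

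Single genes known from immune cells and lysosomes rose, while most members of the lists for these cells were not called. Alox5ap, which presents arachidonic acid to 5-lipoxygenase in leukotriene synthesis, rose from 3.67 and 3.52 to 5.79 and 6.36, by 2.48 ± 0.39. Tspo, a mitochondrial outer membrane protein used as a marker of activated microglia, rose from 4.27 and 4.15 to 6.56 and 5.96, by 2.05 ± 0.33. Ctsz, the lysosomal protease cathepsin Z, rose from 3.83 and 3.82 to 5.53 and 5.38, by 1.63, as the 1 call among 18 cathepsins and lysosomal proteases. In all 3 genes both injured arrays lay above both naive arrays. Of 23 microglia and macrophage genes 0 were called, where 1.28% of all genes were. In this list 19 lay above 0, against 48.4% of all genes, and the median was 0.43. The complement gene C1qb lay at 2.79 and 2.65 in naive D and E and 3.84 and 4.85 after IONT (difference 1.63, adjusted p = 0.0369 by limma). Clu, clusterin, a secreted chaperone that limits complement, was high in the retina and rose from 12.64 and 12.75 to 13.42 and 13.50, by 0.76 ± 0.14 (adjusted p = 0.00801 by limma). Of 16 complement components and regulators 0 were called, and C3 differed by 1.12 (adjusted p = 0.0189 by limma).

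Several other large increases had no list in common. Slc25a30, a kidney mitochondrial carrier protein, rose from 8.59 and 8.03 to 10.71 and 10.63, by 2.36 ± 0.26, and Sec16b, which organises the sites where cargo leaves the endoplasmic reticulum, from 4.99 and 4.35 to 6.98 and 7.47, by 2.55. The unnamed transcript LOC102553824 rose by 3.30 from 2.63 and 2.50 to 5.61 and 6.12. Pcdh15, a protocadherin of hair cells and photoreceptors, rose from 7.06 and 7.26 to 9.10 and 9.14, by 1.95 ± 0.17. In all 4 the injured arrays were closer to each other than to either naive array. Depdc7 rose by 2.10, Elmo3, an engulfment adaptor, by 2.04, Cryzl2 by 1.70 and Sdf2l1, a chaperone cofactor of the endoplasmic reticulum, by 1.66 from 5.96 and 5.80 to 7.71 and 7.38. Dynlrb2, a light chain of dynein in cilia, rose by 2.05 and Drc3, a subunit of the ciliary dynein regulatory complex, by 1.93.

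Some genes rose at 24 h from low signal but differed little from naive A to C on the arrays of some other groups. Tsga10, a gene named for its expression in testis, had the smallest adjusted p of all genes. It read 3.66 and 3.73 in naive D and E and 5.42 and 5.69 after IONT, a change of 1.86 ± 0.10 (adjusted p = 9.86e-07 by limma). Against naive A to C, its change was -0.12 at 12 h and 0.02 at 48 h after IONT and 0.31 at 24 h after IONC. At 3 d it read 4.16 and 3.89 and at 15 d 5.05 and 4.83, all on arrays of the high β-actin range. Fancb, a subunit of the Fanconi anaemia core complex of DNA repair, rose from 2.94 and 2.93 to 4.83 and 5.20, by 2.08 ± 0.16 (adjusted p = 2.19e-05 by limma), with 1.77 at 12 h and 0.42 at 48 h. Elmo3 differed by 0.01 at 12 h and 0.01 at 48 h from naive A to C, but on the arrays of the high β-actin range it read 4.70 and 4.82 at 3 d and 5.84 and 4.54 at 15 d, about as high as at 24 h. Chosen after their values were seen, Cacnb4, a β subunit of voltage-gated calcium channels, rose by 1.2 from 3.73 and 3.75 to 4.84 and 5.04, and Fam228b by 1.38 from 3.81 and 4.20 to 5.27 and 5.49, while they differed from naive A to C by -0.11 and 0.07 at 12 h; naive D and E were 1.06 and 0.95 above naive A to C for these genes. At 15 d Fam228b read 5.38 and 5.57, as high as at 24 h, and Fancb 4.59 and 4.34, whereas Cacnb4 read 3.33 and 3.66. Apart from Cacnb4, these genes thus lay above naive D and E at 15 d too.

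**Figure D3:**
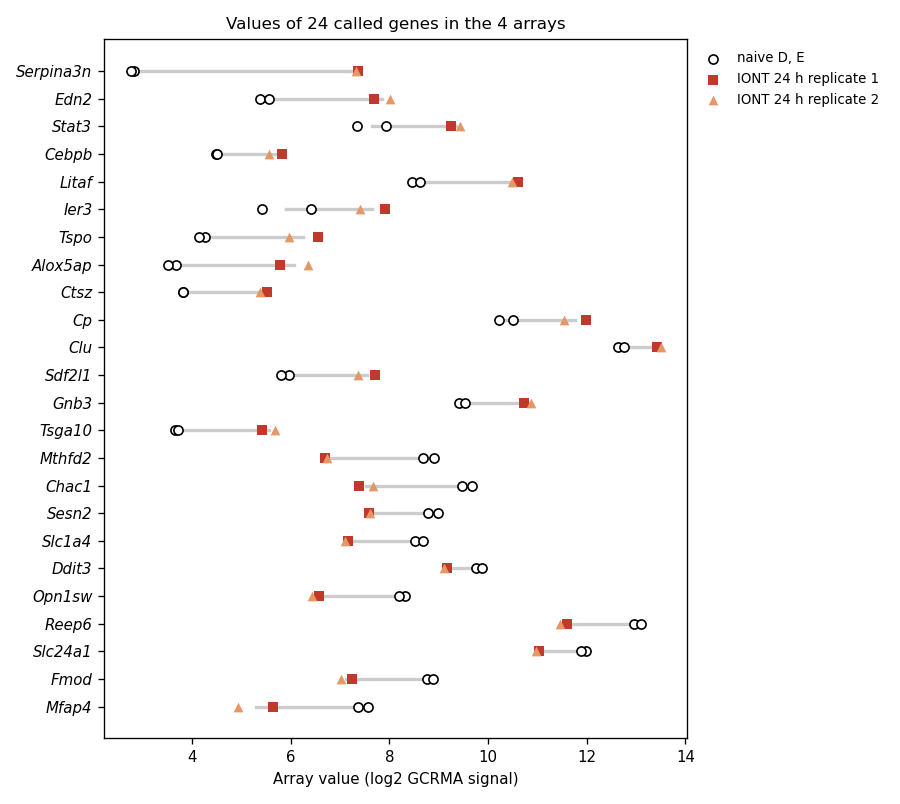
Log2 signals (x axis) of 24 called genes in naive D and E (open circles) and IONT 24 h replicates 1 (squares) and 2 (triangles); grey bars join the group means. In each gene both injured arrays lie on 1 side of both naive arrays, from Serpina3n, at 2.76 to 2.83 against 7.33 to 7.36, to Mfap4, at 7.37 to 7.58 against 4.94 to 5.64.

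Some genes of the integrated stress response and of amino acid supply fell. This response is a switch in translation that raises ATF4, which then transcribes genes of amino acid synthesis, amino acid uptake and transfer RNA charging. Of 20 measured effectors 3 were called lower and 1, Cebpb, higher, 12 lay below 0, and the median was -0.19. Chac1, which degrades glutathione, read 9.47 and 9.67 in naive D and E and 7.39 and 7.67 after IONT, a change of -2.04 ± 0.37 (adjusted p = 0.00801 by limma). Sesn2, a leucine sensor that restrains mTORC1, fell from 8.78 and 8.98 to 7.59 and 7.60, by 1.28 ± 0.23 (adjusted p = 0.0073 by limma). Ddit3, which encodes the factor CHOP, fell from 9.76 and 9.88 to 9.17 and 9.10, by 0.69 ± 0.11. The injured arrays lay below both naive arrays in all 3 genes and differed from each other by at most 0.27. Trib3, an inhibitor of ATF4, was 7.06 and 7.41 against 5.24 and 5.75 (difference -1.74, adjusted p = 0.0187 by limma), and Atf4 itself 12.88 and 13.04 against 12.40 and 12.50 (difference -0.51, adjusted p = 0.0429 by limma). Neither was called by its brightest probe set, but a dimmer one of Trib3 was called lower, from 6.25 and 6.96 to 5.32 and 5.10, by 1.39. A dimmer probe set of Vldlr, another gene of this list, was called lower by 0.94.

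The promoters of these 3 genes that fell are shown with the motif that the search found in each. The C/EBP-ATF element, through which ATF4 is known to act, was found among them only in that of Chac1. Each is 250 bases before to 50 after the annotated start, from RefSeq on build GRCr8, read 5′ to 3′ on the gene's strand. Chac1 lies at chr3:126795881-126796180 on the plus strand and holds, in capitals and on the reverse strand, the C/EBP-ATF element TGATGNAA, first base at position -167 from the start. Sesn2 lies at chr5:150005206-150005505 on the minus strand and holds the antioxidant response element TGACNNNGC in capitals, from position -40. Ddit3 lies at chr7:65001445-65001744 on the plus strand and holds the AP-1 site TGANTCA in capitals, from position -241.
Chac1: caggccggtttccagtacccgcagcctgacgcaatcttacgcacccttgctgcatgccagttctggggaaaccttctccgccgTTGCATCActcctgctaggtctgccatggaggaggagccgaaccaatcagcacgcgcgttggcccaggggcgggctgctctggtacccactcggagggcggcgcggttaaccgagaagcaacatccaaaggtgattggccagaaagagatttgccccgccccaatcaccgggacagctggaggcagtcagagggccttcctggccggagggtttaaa
Sesn2: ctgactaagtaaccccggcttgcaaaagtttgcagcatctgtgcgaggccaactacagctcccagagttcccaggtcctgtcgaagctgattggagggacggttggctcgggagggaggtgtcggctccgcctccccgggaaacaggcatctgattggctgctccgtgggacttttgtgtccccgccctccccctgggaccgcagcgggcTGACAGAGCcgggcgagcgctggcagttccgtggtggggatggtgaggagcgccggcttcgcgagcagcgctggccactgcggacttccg
Ddit3: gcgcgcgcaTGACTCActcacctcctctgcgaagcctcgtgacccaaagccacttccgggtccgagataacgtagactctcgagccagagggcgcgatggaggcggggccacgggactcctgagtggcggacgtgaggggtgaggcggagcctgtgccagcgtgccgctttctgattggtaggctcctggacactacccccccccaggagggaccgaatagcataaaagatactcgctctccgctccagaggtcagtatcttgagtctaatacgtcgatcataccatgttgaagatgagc
Both strands were searched. Of 33469 rat promoters of this length, 3.98% held the C/EBP-ATF element, 12.1% the antioxidant response element and 7.33% the AP-1 site, and of the 20 effectors 4, 9 and 3 held them. A match of letters is a description and not a measured binding site.

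Of 15 measured enzymes that make serine, folate intermediates and asparagine 2 were called lower and 0 higher, 11 lay below 0, and the median was -0.27. Mthfd2, a mitochondrial folate enzyme, fell from 8.91 and 8.68 to 6.71 and 6.74, by 2.07 ± 0.30 (adjusted p = 0.00261 by limma). Psat1, of the serine pathway, fell from 10.69 and 10.67 to 9.83 and 9.93, by 0.80 ± 0.15. Asns, asparagine synthetase, differed by -0.88 (adjusted p = 0.0272 by limma) and Aldh18a1, of proline synthesis, by -1.22 (adjusted p = 0.0228 by limma). Of 19 amino acid transporters 1 was called lower and 0 higher, 15 lay below 0, and the median was -0.37. With centred arrays that median was -0.50, and against naive A to C it was -0.10. The call was Slc1a4, a carrier of alanine, serine and cysteine, at 8.51 and 8.68 against 7.17 and 7.11, a change of -1.46 ± 0.25. The system A transporter Slc38a2 lay just outside the threshold, at 11.61 and 11.57 against 10.78 and 10.79 (difference -0.80, adjusted p = 0.01003 by limma), and just inside it was Polr2d, an RNA polymerase II subunit that rose by 0.85 (adjusted p = 0.00998 by limma). Slc7a5, which carries large neutral amino acids, differed by -1.09 (adjusted p = 0.0136 by limma).

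The enzymes that charge transfer RNAs were listed after their values were seen, since 5 of the genes that fell belonged to them. Of 19 measured cytosolic aminoacyl-tRNA synthetases 5 were called lower and 0 higher, 16 lay below 0, and the median was -0.42, with a range from -1.16 to 0.21. Tars1 fell by 1.10 from 9.79 and 9.61 to 8.68 and 8.52, and Yars1 fell by 0.84 from 11.53 and 11.71 to 10.79 and 10.77. Mars1 fell by 0.79, Eprs1 by 0.77 and Gars1 by 0.56. Against naive A to C, the Gars1 change was 0.12. Cars1, the lowest of the list at -1.16, was not called by its brightest probe set (adjusted p = 0.0164 by limma). Dimmer probe sets of Cars1 were called lower, by 1.53 and 1.92 (adjusted p = 0.0064 and 0.000381 by limma). Of the 13 measured mitochondrial synthetases 0 were called, 4 lay below 0, and the median was 0.07, or below 0 once arrays were centred. The cytosolic enzymes thus lay mostly below the naive arrays and the mitochondrial ones on both sides of them.

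Of 19 measured chaperones of the endoplasmic reticulum 2 were called higher and 1 lower, 15 lay above 0, and the median was 0.25, or 0.12 with centred arrays and 0.04 against naive A to C. Besides Sdf2l1, Pdia3, a disulfide isomerase, rose from 10.99 and 11.20 to 11.82 and 11.70, by 0.67 ± 0.12, while Herpud1, of the degradation machinery, fell from 10.76 and 10.89 to 10.09 and 10.20, by 0.68. Hspa5, the chaperone BiP, read 11.96 and 12.00 against 12.66 and 12.35 and was not called (adjusted p = 0.183 by limma). Of 31 cytosolic ribosomal protein genes 1, Rps3, was called higher, by 0.48, and 28 lay above 0 with a median of 0.25, or 0.12 with centred arrays and -0.09 against naive A to C. In this list naive D and E differed by a call from naive A to C in 12 of 31 genes. Of 21 glycolysis genes 1 was called lower and 17 lay below 0, with a median of -0.20. Eno1, enolase 1, fell from 12.29 and 12.39 to 11.60 and 11.63, by 0.73 ± 0.08 (adjusted p = 0.000468 by limma), and Hk2, hexokinase 2, differed by -2.0 (adjusted p = 0.0149 by limma). Cyp51, of cholesterol synthesis, rose by 0.66.

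**Figure D4:**
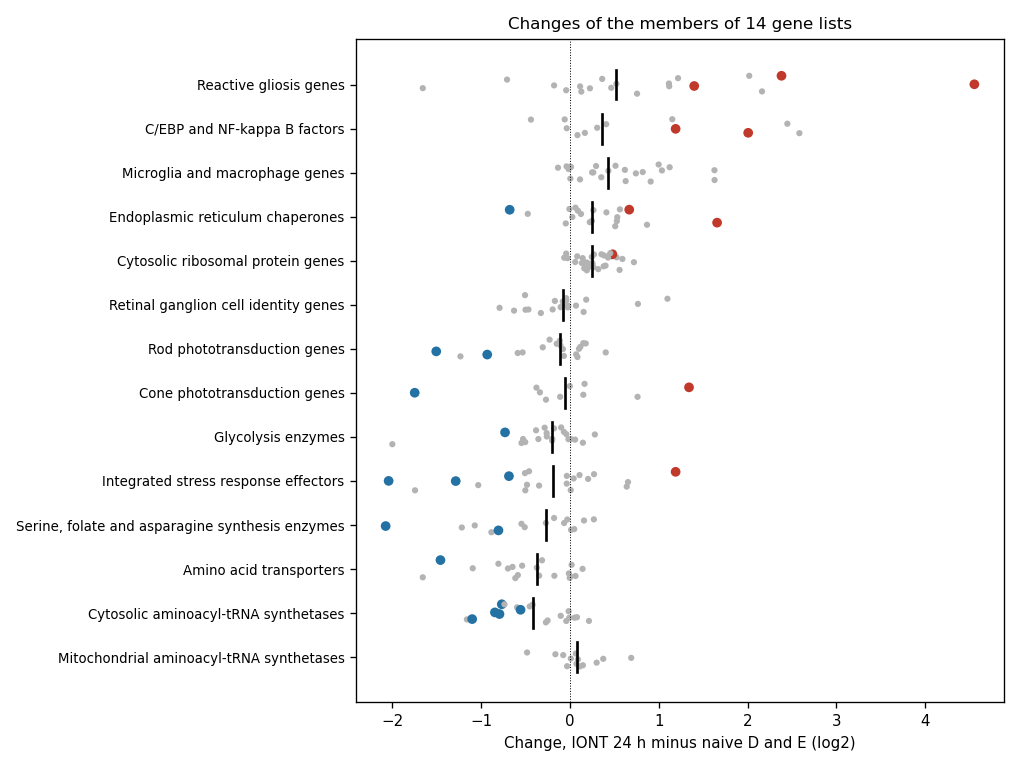
Change at 24 h after IONT (x axis, log2) of each measured member of 14 gene lists; red and blue points were called higher and lower, grey points were not called, and black bars are medians. The medians of gliosis genes (0.52) and microglia genes (0.43) lie to the right, those of amino acid transporters (-0.37) and cytosolic aminoacyl-tRNA synthetases (-0.42) to the left.

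Photoreceptor genes changed singly rather than as a group. Rods had 2 of 19 phototransduction genes called lower, with a median of -0.11, and cones 1 of 10 lower and 1 higher, with a median of -0.06. Opn1sw, the short-wavelength cone opsin, fell from 8.32 and 8.19 to 6.58 and 6.44, by 1.75 ± 0.23 (adjusted p = 0.00143 by limma). Gnb3, the cone transducin β subunit, which ON bipolar cells also use, rose from 9.41 and 9.53 to 10.74 and 10.88, by 1.34 ± 0.19. The other cone opsin, Opn1mw, lay at 7.71 and 7.74 against 7.63 and 8.16 (difference 0.17). Cone genes therefore lay above, below and level with the naive arrays. Among rod genes, Reep6, which shapes the endoplasmic reticulum of rods, fell from 12.96 and 13.11 to 11.61 and 11.45, by 1.5 ± 0.28, and Slc24a1, the sodium-calcium exchanger of rod outer segments, from 11.99 and 11.88 to 11.03 and 10.98, by 0.93. Grk1, the rhodopsin kinase, and Gnat1, rod transducin, differed by -1.23 and -0.53 with adjusted p of 0.0127 and 0.0354 by limma. Rorb, a nuclear receptor needed for rod development, rose from 6.56 and 7.10 to 8.01 and 8.48, by 1.42.

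The promoter of Opn1sw is shown because, of the 58 lists, the cone and stress response lists had the largest share of called members. The enzymes that charge transfer RNAs, listed after their values were seen, were not among these lists. Gnb3, the other called cone gene, had no promoter sequence. CRX, the photoreceptor homeobox factor, is known to act at the Opn1sw promoter. It lies at chr4:58945776-58946075 on the minus strand of GRCr8, and the capitals mark a CRX site, TAATCC, from position -106 of the start.
Opn1sw: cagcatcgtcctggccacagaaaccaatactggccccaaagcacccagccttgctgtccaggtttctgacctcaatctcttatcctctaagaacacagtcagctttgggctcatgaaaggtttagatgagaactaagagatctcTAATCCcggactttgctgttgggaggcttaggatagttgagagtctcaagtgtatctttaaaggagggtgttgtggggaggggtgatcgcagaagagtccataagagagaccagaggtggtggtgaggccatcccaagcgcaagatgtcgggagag
The site was found on either strand in 7.17% of the 33469 promoters, and among the 7 cone genes with a promoter sequence in 1. Crx itself read 10.73 and 11.04 in naive D and E and 9.97 and 10.24 after IONT (difference -0.78, adjusted p = 0.0687 by limma), which did not pass the threshold.

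The other large decreases belonged to genes of varied function. Mfap4, a microfibril protein of the extracellular matrix, fell from 7.37 and 7.58 to 5.64 and 4.94, by 2.18 ± 0.39, and Fmod, the collagen-binding fibromodulin, from 8.76 and 8.88 to 7.23 and 7.02, by 1.69 ± 0.26. Slc22a8, an organic anion transporter, fell from 6.42 and 5.77 to 4.19 and 3.69, by 2.16, and Irx4, an Iroquois homeobox factor, from 4.84 and 5.35 to 2.73 and 3.35, by 2.06. At 12 h and 48 h Fmod differed from naive A to C by -0.07 and 0.40, whereas for Irx4 the differences were -1.48 and -2.53. Plpp2, a lipid phosphate phosphatase, fell by 1.64, Tmem116 by 1.92, Fam169a by 1.29, Agpat3, a lysophospholipid acyltransferase, by 1.14, and Anxa6, a membrane-binding annexin, by 1.28. Lama5, a laminin chain, fell by 0.88 to a level in the lowest quartile of both injured arrays. Tnfaip3, the ubiquitin-editing brake on NF-κB, fell from 10.70 and 10.23 to 9.39 and 9.63, by 0.95. Smim24, Kndc1, Ppp1r18, Kiaa1549 and Nynrin fell by 2.10, 1.40, 1.25, 1.76 and 1.13, and in all 5 naive D and E were higher than naive A to C by 1.05 to 2.84. Among the 114 genes called higher, 12 were called higher and 26 lower in naive D and E than in naive A to C. Among the 68 called lower, the counts were 14 and 3, and among all 14217 genes 765 and 822 (11.2% in either direction). In both called sets the larger count lay on the side opposite to the 24 h change. Naive D and E enter both comparisons with opposite sign, so deviations of these arrays alone push the counts to that side. No conclusion is drawn from this lean. The part of this naive difference in the calls was not tested.

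By the brightest probe set of each gene, no gene of the RGC lists fell past the threshold at 24 h, where 0.478% of all genes did. At that share, lists this short can hold no call without differing from other genes. Of 21 RGC identity genes 0 were called, and their median change was -0.08. A dimmer probe set of Rbpms, an RNA-binding protein of RGCs, was called lower, from 4.52 and 4.10 to 3.33 and 3.36, by 0.97 (adjusted p = 0.00159 by limma), while its brightest differed by -0.79 (adjusted p = 0.449 by limma). Nrn1, neuritin, an activity-regulated protein of RGCs, read 8.84 and 8.67 in naive D and E and 7.92 and 8.60 after IONT (difference -0.50, adjusted p = 0.695 by limma). Slc17a6, the vesicular glutamate transporter of RGCs, read 9.90 and 9.72 against 9.78 and 9.76 (difference -0.04), and the surface protein Thy1 8.16 and 8.59 against 8.08 and 8.64 (difference -0.02). The neurofilament gene Nefl lay at 11.75 and 11.44 against 10.91 and 11.23 (difference -0.53 ± 0.16, adjusted p = 0.0878 by limma). Among 28 regeneration-associated genes of injured neurons 1, Klf6, was called, and 20 lay above 0 with a median of 0.17. Sprr1a, a small proline-rich protein of regenerating neurons and of stratified epithelia, read 4.20 and 2.84 against 11.20 and 8.07 (difference 6.12, adjusted p = 0.0152 by limma), so the injured arrays differed from each other by over 3. Krt14, a keratin of basal epithelial cells, followed the same order of arrays, at 2.89 and 3.23 against 11.04 and 7.79 (difference 6.36, adjusted p = 0.0123 by limma). The neutrophil gene S100a9 read 2.84 and 2.91 against 9.98 and 8.06 (difference 6.15, adjusted p = 0.0116 by limma). Tnfrsf12a, the receptor of the cytokine TWEAK, read 4.23 and 4.99 against 6.44 and 6.56 (difference 1.89, adjusted p = 0.0257 by limma).

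A further list held 12 measured genes that were followed by quantitative PCR or blot. Litaf and Clu were called higher at 24 h. Of the 12, PCR reference genes included, 10 lay above 0 with a median of 0.63. Fos, an AP-1 subunit, read 7.06 and 7.18 against 8.61 and 8.32 (difference 1.35, adjusted p = 0.127 by limma), and Tnfrsf1a, the TNF receptor 1, 4.55 and 4.41 against 5.98 and 5.65 (difference 1.33, adjusted p = 0.121 by limma). Ccl2, a monocyte chemokine, lay at 3.08 and 2.43 against 3.25 and 3.27 (difference 0.50), and Ahr, the aryl hydrocarbon receptor, at 6.0 and 5.85 against 6.26 and 6.60 (difference 0.50). The paper reports far larger array increases of Ccl2 and Ahr at an earlier and a later time after transection. The small differences here therefore do not show that these 2 genes hardly respond to the lesion. The arrays of those other times lay in the lower β-actin range, and the part of the range in this contrast was not tested. Calr, the chaperone calreticulin, differed by 0.22 and Eef2k, the kinase of elongation factor 2, by -0.18. The reference gene Hprt1 lay between 12.20 and 12.30 in all 4 arrays. Rpl30 lay in the lowest quartile of all 4, so its probe set carries no measured change. The authors chose these genes on the same samples, the targets as upregulated and the reference genes as unchanged. Their directions are therefore no independent evidence.

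Across the 58 gene lists examined, 35 had no member called by its brightest probe set, where 1.28% of all genes were called. Among 12 activity-regulated genes the 1 call was Ier3. Egr1, an immediate early transcription factor, read 7.85 and 7.51 against 10.11 and 9.34 (difference 2.05, adjusted p = 0.0302 by limma). Of 15 AP-1 and ATF factors 0 were called, and Atf3, which marks injured neurons, read 8.42 and 8.67 against 7.84 and 8.25 (difference -0.50, adjusted p = 0.0921 by limma). Immediate early genes thus lay on both sides of the naive arrays. Of 20 genes of TNF and death receptor signalling Litaf was called higher and Tnfaip3 lower. Timp1, the tissue inhibitor of metalloproteinases, read 5.63 and 5.87 against 7.38 and 7.42 (difference 1.65, adjusted p = 0.0249 by limma), and 0 of 16 metalloproteinases and inhibitors were called. Spp1, osteopontin, read 6.24 and 6.26 against 7.73 and 8.03 (difference 1.63, adjusted p = 0.183 by limma). Emp1, an epithelial membrane protein, read 8.59 and 8.51 against 11.79 and 9.35 (difference 2.02, adjusted p = 0.35 by limma), with replicate 1 far above replicate 2 as for the keratins. Opn4, melanopsin, the photopigment of intrinsically photosensitive RGCs, read 7.15 and 7.01 against 8.25 and 8.10 (difference 1.10, adjusted p = 0.0139 by limma). None of Egr1, Atf3, Timp1, Spp1, Emp1 and Opn4 passed the threshold.

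The 24 h arrays were next set directly against those of IONT 3 d and of IONT 15 d, which lay in the same β-actin range. Between 24 h and 3 d, 24 genes were higher at 24 h (0.169% of 14217) and 50 lower (0.352%). The genes higher at 24 h were led by neuronal ones. Nrn1 was 3.79 ± 0.42 higher than at 3 d (adjusted p = 0.00047 by limma), where it read 3.93 and 5.00. The intermediate filament genes Prph (peripherin), Nefh and Nefl were 2.48, 2.27 and 1.65 higher, and Nefl read 9.44 and 9.39 at 3 d. Of the 5 intermediate filament genes of neurons 3 were called higher at 24 h than at 3 d, and 5 than at 15 d. Tsga10 was 1.54 higher at 24 h. Lower at 24 h was Ecel1, an endopeptidase induced in injured neurons. It read 2.07 and 2.08 against 5.83 and 6.78 at 3 d (difference -4.23, adjusted p = 2.61e-05 by limma). Both 24 h values of Ecel1 lay in the lowest quartile of their arrays, so the size of this difference is uncertain. C1qb and C1qc, chains of the complement factor C1q that microglia make, were lower at 24 h by differences of -2.56 and -2.46, Wfdc1 differed by -2.0 and Hspb8, a small heat shock protein, by -1.85. Of 23 microglia genes 3 were lower at 24 h and 0 higher, with a median of -1.31. The count of probe sets, 166, was 1076 without replicate 1 of IONT 3 d, 345 without its replicate 2 and 341 without replicate 2 of IONT 24 h.

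Against IONT 15 d, 215 genes were higher at 24 h (1.51%) and 423 lower (2.98%). Slc17a6 was 6.34 ± 0.23 higher at 24 h than at 15 d (adjusted p = 1.81e-08 by limma), where it read 3.49 and 3.37. Nrn1 and Prph were 5.59 and 5.49 higher, and 8 of 21 RGC identity genes were higher at 24 h with 0 lower. Sprr1a and Krt14 were 6.56 and 6.17 higher at 24 h, again with replicate 1 above replicate 2. Of 10 measured genes of MHC class II and their activator Ciita 5 were lower at 24 h and 0 higher, whereas of 17 genes of class I antigen processing and the immunoproteasome 0 were called, with a median of -0.05. RT1-Ba, an MHC class II chain, read 3.32 and 2.14 at 24 h and 6.82 and 7.04 at 15 d (difference -4.20 ± 0.50, adjusted p = 0.000337 by limma). Cd74, the invariant chain, differed by -3.12 and RT1-Da by -3.07. S100a3, a calcium-binding protein, differed by -3.59, and Mfap4 by -3.14. Chac1 differed by -2.56 from 15 d, and 6 of 20 stress response effectors, 6 of 15 serine and folate enzymes and 5 of 19 amino acid transporters were lower at 24 h with 0 higher in each list. Without replicate 1 of IONT 24 h 421 probe sets were called against 15 d, in place of 1175, and with centred arrays 57.9% of the calls were higher, in place of 37.3%.

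**Figure D5:**
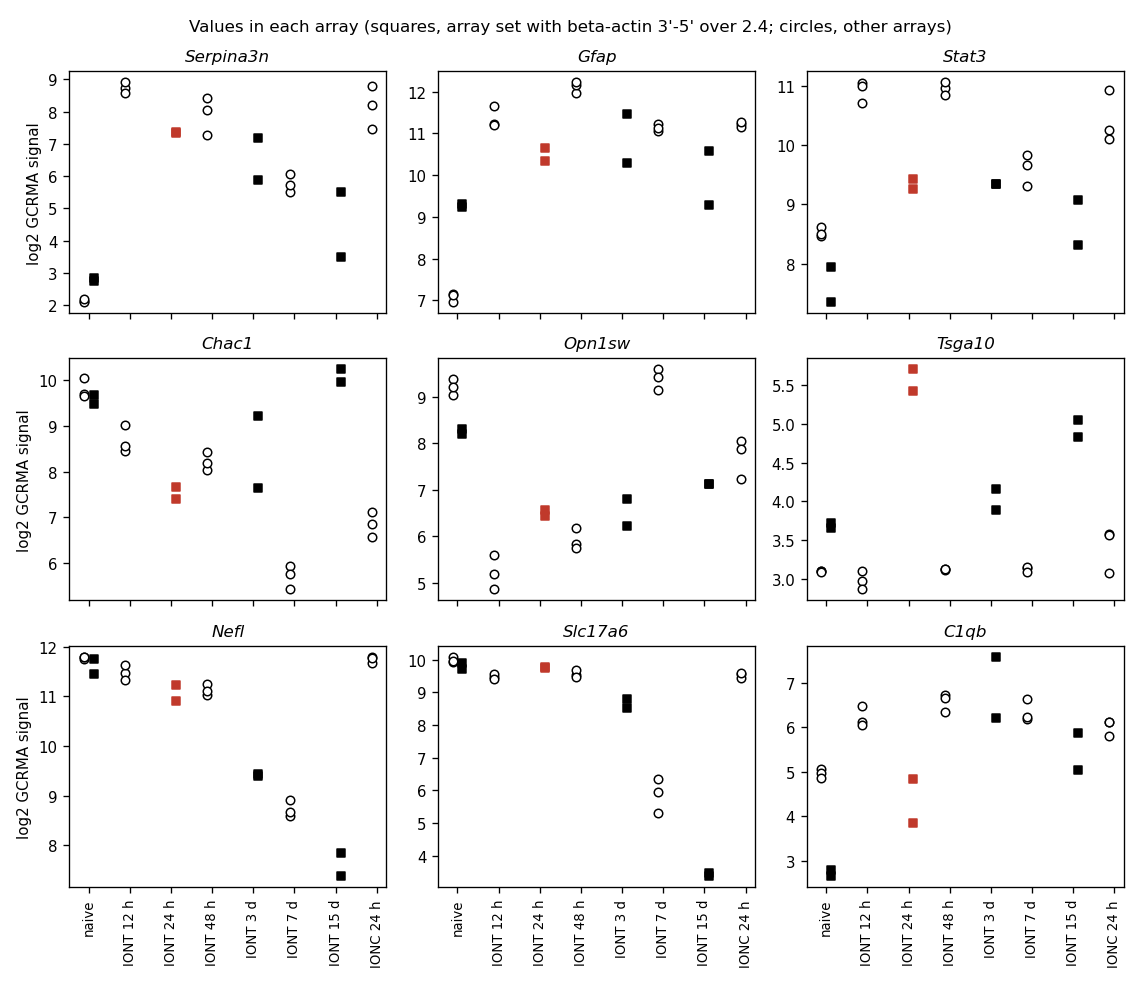
Log2 signal of 9 genes in each array of naive, IONT and IONC 24 h retinas; squares are arrays of the high β-actin range (IONT 24 h in red), circles the other arrays. Naive arrays D and E (squares) lie above naive A to C (circles) for Gfap and below them for C1qb; Slc17a6 and Nefl at 24 h lie near the naive values and far above those at 15 d.

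Transection at 24 h was compared with crush at the same time through the change of each lesion against its own naive arrays, IONC 24 h against naive A to C. The change after IONT exceeded that after IONC in 63 genes (0.443%) and fell short of it in 14 (0.0985%). The 5 largest excesses were those of Hook3, Ston2, Ubn1, Jun and Plekhh1. Jun, an AP-1 subunit, read 9.36 and 9.73 in naive D and E and 10.17 and 10.41 after IONT (difference 0.75, not called), whereas after IONC it fell by 1.35 from 11.48, 11.73 and 11.68 to 10.30, 10.23 and 10.32. The injured arrays of both lesions read alike and their naive arrays did not. These levels come from different β-actin ranges, and the part of the range in them was not tested. The largest shortfall was that of Gfap, which rose by 4.14 after IONC and differed by 1.22 after IONT, a difference of -2.92 (adjusted p = 0.0018 by limma). The IONC 24 h arrays read 11.23, 11.16 and 11.28. Serpina12, Kndc1, Pgls and Prrg3 followed, with differences of -1.44, -1.40, -1.18 and -1.03. Lesion and array range cannot be told apart in this comparison. Of 230 probe sets called, 77.8% had the higher change after IONT, or 45.5% with centred arrays; the count was 488 without naive E, 424 without replicate 2 of IONT 24 h and 149 without replicate 2 of IONC 24 h.

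The genes called at 24 h were last set beside 4 comparisons that use other control arrays, naive A to C. Of the 114 genes that rose, 93 lay above 0 at IONT 12 h and 44 were called higher there, where 308 genes were called higher (2.17%) and 227 lower (1.6%). At IONT 48 h 101 lay above 0, 47 were called higher and 1 lower, of 468 called higher (3.29%) and 529 lower (3.72%). At IONC 24 h 101 lay above 0 and 37 were called higher, of 227 called higher (1.6%) and 403 lower (2.83%). At IONT 7 d 91 lay above 0, 22 were called higher and 1 lower, of 303 called higher (2.13%) and 535 lower (3.76%). In the order IONT 12 h, IONT 48 h, IONC 24 h and IONT 7 d, the shared genes made up 38.6%, 41.2%, 32.5% and 19.3% of the 24 h increases, and 14.3%, 10%, 16.3% and 7.26% of the increases there. Over all genes, 57.5%, 59.9%, 60.8% and 55.4% lay above 0. Of the 68 genes that fell, 53, 52, 53 and 46 lay below 0, and 18, 30, 28 and 23 were called lower in the same order. That was 26.5%, 44.1%, 41.2% and 33.8% of the 24 h decreases, and 7.93%, 5.67%, 6.95% and 4.3% of the decreases there, and over all genes 42.5%, 40.1%, 39.2% and 44.6% lay below 0. Serpina3n rose by 5.78 at IONT 48 h and 6.02 at IONC 24 h, Stat3 by 2.43 and 1.91, and Litaf by 3.19 and 2.29. Chac1 fell by 1.58 at IONT 48 h and 2.95 at IONC 24 h, Mthfd2 by 2.17 and 3.71, and Slc1a4 by 1.76 and 2.53. Opn1sw fell by 4.00, 3.29 and 1.5 at IONT 12 h, IONT 48 h and IONC 24 h.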

How the data were processed

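Adult female Sprague-Dawley rat retinas were profiled on 35 Affymetrix RAE230.2 arrays. The deposited values are log2 signals that the authors computed with GCRMA in Bioconductor; no version is stated in what was read here. No depth applies to arrays, and their number limits the precision. Of 31099 probe sets 57 controls were left out and 31042 tested; 20826 carried 1 gene symbol, 436 several and 9780 none. Where several probe sets carried 1 symbol, the one brightest on average over the 35 arrays stood for the gene (14217 genes).

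Groups came from the labels, with replicate numbers from the sample descriptions and the naive letters from the titles. Changes were fitted in limma 3.58.1 (R 4.3.3, statmod 1.5.0) with 1 coefficient per group over 20 arrays, naive D and E apart from naive A to C; the contrast with IONC used 32 arrays, without those of IONC 12 h, which varied most. Adjusted p-values are Benjamini-Hochberg values over all probe sets. The division by β-actin was made after the control values were seen. The comparison and the gene lists were chosen with earlier results of these data known. Named genes are the 20 largest called increases and decreases, up to 8 members a list with the largest changes, the genes followed by PCR or blot, the 5 largest either way in other contrasts, and those nearest the threshold; others are marked in the text. Alternatives covered thresholds, filters, moderation, scaling, control arrays and leaving out arrays. Further probe sets of Il6st, Trib3, Vldlr, Cars1 and Rbpms, and the crystallin probe set with several symbols, were named after their values were seen. The code was tested on simulated data. Promoters came from RefSeq, build GRCr8.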

Additional observations from a re-analysis of the deposited data

Results flagged for a closer look

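The 10 genes below stood out because their 24 h change after IONT, against naive D and E, differed from that after IONC, against naive A to C, by a test of the difference in limma. They are the 5 largest differences in either direction among the 77 called. Hook3 differed by 2.66 (1.01 after IONT and -1.66 after IONC, adjusted p = 0.00425 by limma), Ston2 by 2.56 (1.81 and -0.74), Ubn1 by 2.32 (1.25 and -1.07), Jun by 2.09 (0.75 and -1.34) and Plekhh1 by 2.0 (1.18 and -0.82). In the other direction Gfap differed by -2.92 (1.22 and 4.14, adjusted p = 0.0018 by limma), Serpina12 by -1.44 (-0.97 and 0.47), Kndc1 by -1.40 (-1.40 and 0.00), Pgls by -1.18 (-0.54 and 0.64) and Prrg3 by -1.03 (-0.87 and 0.16). Naive D and E lay below naive A to C by differences of -2.80 for Ston2, -2.03 for Ubn1 and -2.09 for Jun, and above them by 2.20 for Gfap. The part of these control differences in the results was not tested.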

How the results depend on the processing

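The 447 probe sets called at 24 h became 1506 at an adjusted p under 0.05 with no limit on B, 258 with all 35 arrays, 730 with all arrays but IONC 12 h, 904 with the 5 naive arrays as 1 group, 4644 with naive A to C as control, and 0 with only the 4 arrays compared or only the 8 arrays of the high β-actin range (5081 and 3672 at an unadjusted p under 0.05). Leaving out 1 array gave 170 (without naive D) to 518, and of the 182 genes 33 to 76 were still called. The count against IONT 3 d, 166, became 529 at the looser threshold and 100 with probe sets above 4 in at least 2 arrays, and 165 to 1076 without 1 array. Against IONT 15 d, 1175 became 3552 at the looser threshold, 587 with all 35 arrays and 421 to 968 without 1 array. The 230 differences from IONC became 801 and 73 under those settings and 149 to 488 without 1 array, and the 3737 between naive arrays 7544, 2318 and 2400 to 3103. Of 58 lists 33 had a median above 0, and 13 with centred arrays, 20 with naive A to C as control. With naive A to C as control the change of 26 of the 182 called genes turned; among the genes named it turned for Smim24 (0.73), Kndc1 (0.11), Ppp1r18 (0.11), Klf6 (-0.59) and Gars1 (0.12), and for Jun (-1.34), which was not called. The causes were not tested.

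No paired analysis was possible for IONT 24 h against naive D and E because these groups share no replicate number. IONT 24 h, 3 d and 15 d share numbers. Replicate 1 minus replicate 2 at 24 h correlated at 0.07 with that at 3 d and at -0.14 with that at 15 d. Correlations this weak do not decide whether the shared numbers mark paired arrays. With the replicate number as a block, 44 probe sets were called against 3 d and 331 against 15 d. The titles letter the 24 h arrays the other way round, with B for replicate 1 and A for replicate 2, unlike at 3 d and 15 d. With the numbers crossed, which follows these letters but was chosen after seeing the data, 297 were called against 15 d.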
